A study of Mus musculus with 6 samples.

Results

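The bile and organic anion transporters of the liver were followed in Nrg4-deficient mice. Nrg4 codes for neuregulin 4, a hormone-like ligand that brown fat makes in abundance and that binds ErbB receptors. The set comprised 9 genes of 17097 with at least 1 probe set annotated to a single symbol, chosen by name for uptake from the blood (Slc10a1, Slco1a1 and Slco1b2), export into bile (Abcb11, Abcb4, Abcc2, Abcg5 and Abcg8) and export back to the blood (Abcc3). Together they had 15 probe sets of 28898 with 1 symbol, and each gene was represented by its brightest probe set over all arrays. The 2 groups were Nrg4 knockout (KO) livers and wild-type (WT) livers. All mice were labelled as strain C57BL/6, were 3 months old when a high-fat diet (Research Diets D12492) began, ate it for 8 weeks and had free access to food until harvest. Each genotype had 3 Affymetrix MG-430 PM arrays, and each array held an independent pool of liver RNA. The sources used here do not give the number of mice in a pool, their sex or how the knockout was made, and a p-value measures pool-to-pool spread only.

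Bile formation depends on carriers at opposite faces of the hepatocyte. Sodium-coupled and sodium-independent carriers on the sinusoidal face take up bile acids and other organic anions from portal blood, and ATP-driven pumps on the canalicular face secrete bile acids, phospholipid, cholesterol and conjugated anions into bile. Pumps on the basolateral face return conjugates to the blood. Nuclear receptors that sense bile acids and oxysterols control many of these genes.

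The sequences directly upstream of 3 genes are shown because these genes had the smallest unadjusted p-values of the set, and the stretch between the starts of Abcg5 and Abcg8 because these genes lie side by side in opposite orientation, with starts 110 bases apart. They come from RefSeq promoter windows of build GRCm38.p6, which held 8 of the 9 genes, and are written 5′ to 3′ on the strand named. The first 3 end at the base before the start of transcription. Capitals mark matches on either strand to 5 motifs, each written 5′ to 3′. The letters TATAAA spell the core promoter box. GTTAAT is a half-site of HNF1 factors, TTCNNNGAA is a STAT element, and AGGTCA is a half-site of nuclear receptors. TGACNNNGC is the core of an antioxidant response element.
Slco1a1 (chr6:141946963-141947212, - strand): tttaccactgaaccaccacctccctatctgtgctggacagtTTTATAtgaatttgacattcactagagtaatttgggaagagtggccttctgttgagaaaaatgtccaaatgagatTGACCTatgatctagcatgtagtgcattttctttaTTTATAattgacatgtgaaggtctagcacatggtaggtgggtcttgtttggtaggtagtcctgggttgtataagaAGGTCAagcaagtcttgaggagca
Slco1b2 (chr6:141629268-141629517, + strand): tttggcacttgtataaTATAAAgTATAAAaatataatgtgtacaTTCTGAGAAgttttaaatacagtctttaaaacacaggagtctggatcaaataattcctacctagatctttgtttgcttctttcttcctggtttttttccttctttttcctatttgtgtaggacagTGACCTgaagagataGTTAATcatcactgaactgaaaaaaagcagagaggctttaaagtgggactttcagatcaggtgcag
Abcc2 (chr19:43782058-43782307, + strand): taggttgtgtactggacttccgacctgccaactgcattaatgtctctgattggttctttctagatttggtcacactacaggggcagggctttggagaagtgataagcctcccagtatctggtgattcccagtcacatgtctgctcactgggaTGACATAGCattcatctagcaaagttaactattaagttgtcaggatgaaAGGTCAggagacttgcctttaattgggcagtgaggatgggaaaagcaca
Abcg5 to Abcg8 (chr17:84683012-84683120, + strand): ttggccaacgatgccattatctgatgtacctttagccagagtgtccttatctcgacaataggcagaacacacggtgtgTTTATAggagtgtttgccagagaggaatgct
Distances are counted from the start of transcription back to the first base of the match. Slco1a1 held AGGTCA at 24 bases, the same motif on the opposite strand at 134 bases, and TATAAA on the opposite strand at 99 and 209 bases. Slco1b2 held TATAAA at 227 and 234 bases, AGGTCA on the opposite strand at 81 bases, GTTAAT at 66 bases and a STAT element at 206 bases. Abcc2 held AGGTCA at 49 bases and an antioxidant response element core at 98 bases. Of 32851 upstream windows of 250 bases, 14.0% held AGGTCA, 10.2% TGACNNNGC, 7.02% TTCNNNGAA, 6.43% GTTAAT and 12.4% TATAAA. The 109 bases between Abcg5 and Abcg8 held 1 match to TATAAA on the Abcg5 strand and no match to the other motifs, where 5.90% of windows of that length held TATAAA. No matches overlapped. A match is a description of the letters and not a binding site.

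The arrays were checked against their labels first. Nrg4 was 2.56, 2.43 and 2.64 on the log2 scale in KO pools 1, 2 and 3, against 4.94, 4.79 and 4.77 in WT pools (log2 change -2.30, SE 0.10, limma adjusted p = 4.76e-05). All 3 KO values were below 2.66, the log2 level under which probe sets were counted as dim, so this difference is given as measured and its size is not exact. Hepatocyte markers had array means of 11.33 to 11.41 in KO and 11.35 to 11.38 in WT livers, with 0 of 9 called, 0 at an unadjusted limma p under 0.05 and a median log2 change of -0.002. Over all genes tested, 63.4% had a higher value in KO livers and the median log2 change was 0.04. Among markers of other cells, the median log2 change was 0.40 for macrophages and Kupffer cells (12 of 12 members with a higher value, array means 6.22 to 6.95 in KO and 6.14 to 6.34 in WT, with KO pool 1 among the WT pools), 0.29 for sinusoidal endothelium (9 of 10, 5.77 to 6.07 and 5.40 to 5.72) and 0.17 for stellate cells and matrix (9 of 10, 5.37 to 5.54 and 5.13 to 5.24). No marker passed over all genes, while 6, 4 and 4 members of these lists stood at an unadjusted limma p under 0.05, as did 9.55% of all genes tested; the smallest adjusted p-values were those of Lyve1 at 1.29 (limma adjusted p = 0.0743), Adgre1 at 0.64 (limma adjusted p = 0.143) and Col3a1 at 0.80 (limma adjusted p = 0.143). Of the bile duct markers Sox9, Slc4a2 and Epcam were tested, with a median of 0.04; Sox9 alone stood at an unadjusted limma p under 0.05, at 0.35 and without overlap between the genotypes (limma adjusted p = 0.368), while Krt19, Krt7, Cftr and Prom1 were too dim to be tested. The 5′ control probe set of 18S ribosomal RNA was 5.61 to 6.71 in KO and 8.12 to 8.80 in WT livers. Its middle probe set was 5.74 to 6.59 and 7.92 to 8.14, and its 3′ probe set 6.67 to 6.89 and 7.45 to 7.73. The mean 5′ minus 3′ signal of Actb and Gapdh was -1.31, -0.70 and -0.65 in KO pools and -0.95, -0.78 and -0.96 in WT pools, so KO pool 1 stood lowest. The 18S signal separated the genotypes completely, so any part of it in the transporter values cannot be told apart from genotype. The part of the other differences was not tested, beyond a fit with the 5′ minus 3′ signal of Actb and Gapdh as a term. In bulk liver, a difference in the number of cells of a type and a difference in RNA per cell cannot be told apart.

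None of the 9 transporters passed the genotype test, and 0 of the 9 lie on the chromosome that holds Nrg4. All of them lay above the limit for dim probe sets (log2 2.66), with means over the arrays of 6.48 to 10.36. In the fit over all 12466 genes tested, 5 genes passed at a limma adjusted p under 0.05, which is 0.0401%, and 0 of 9 transporters did. The smallest adjusted p of a transporter was 0.350. At an unadjusted limma p under 0.05 stood 3 of the 9, namely Slco1a1, Abcc2 and Slco1b2, and all 3 had lower values in KO livers. Over all genes tested, 9.55% stood at that p, 2.18% with a lower value and 7.36% with a higher one. Slco1b2 lay close to that limit, at an unadjusted limma p of 0.0496. In a limma fit of every probe set on its own, its brightest probe set had an unadjusted p of 0.0519. The arrays of the genotypes did not overlap in 2 transporters with lower KO values, Slco1a1 and Abcc2, where 3.92% of all genes tested did so in that direction, and in 1 with higher KO values, Abcc3, where 11.7% did; 15.6% of all genes tested did so in either direction. The median log2 change of the 9 genes was -0.007, against 0.04 over all genes tested, of which 63.4% had a higher value in KO livers.

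**Figure D1:**
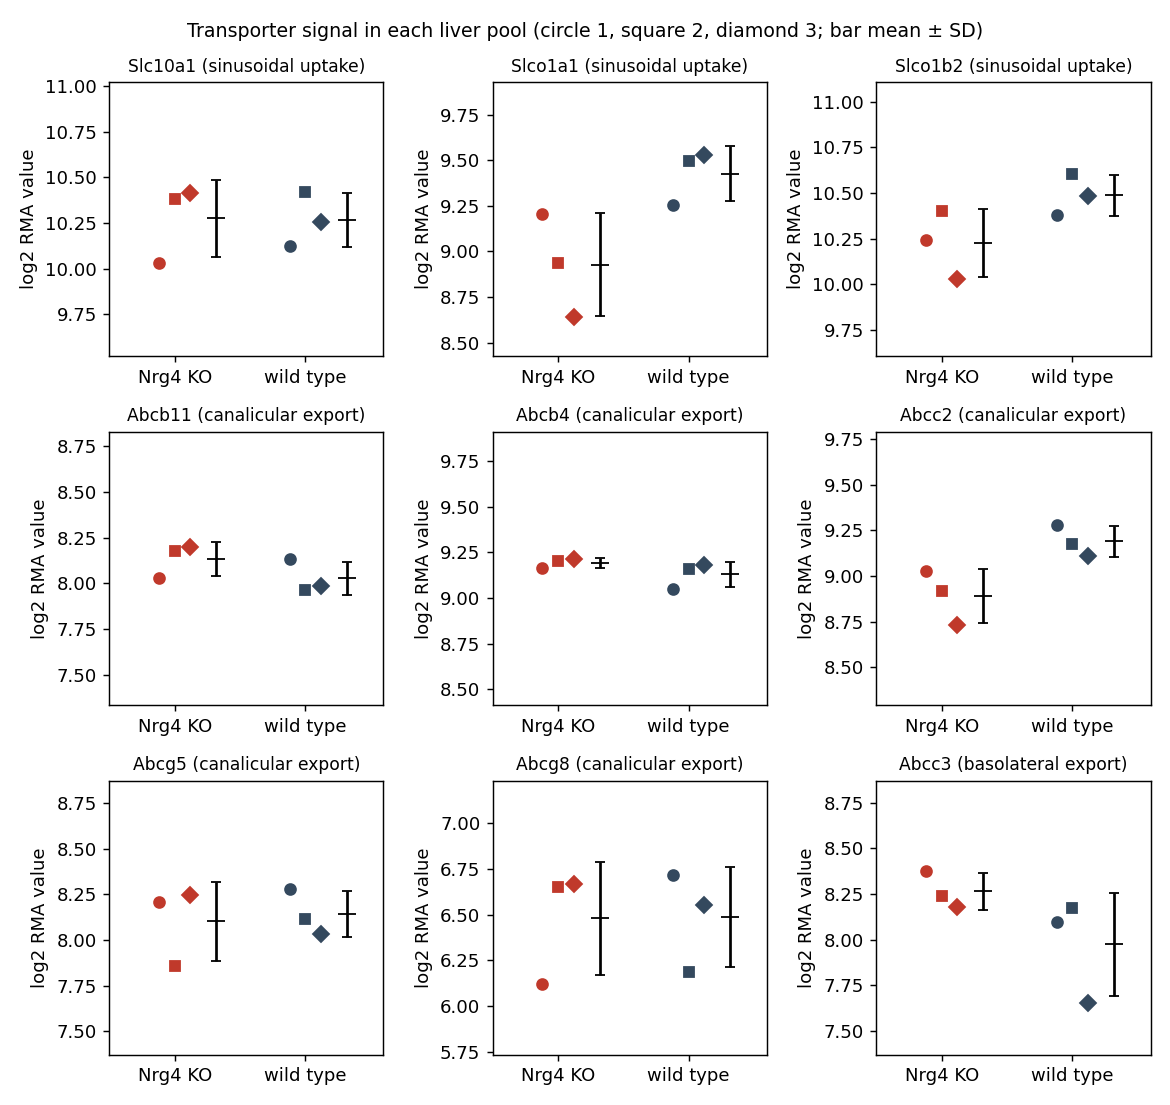
Log2 RMA values of the 9 transporters in each of 3 Nrg4 KO and 3 WT liver pools (symbols give the pool number, bars the mean ± SD, n = 3 pools; each panel spans 1.5 log2 units). The KO points of Slco1a1 and Abcc2 lie below all WT points, those of Abcc3 lie just above them, and the other genes overlap.

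**Figure D2:**
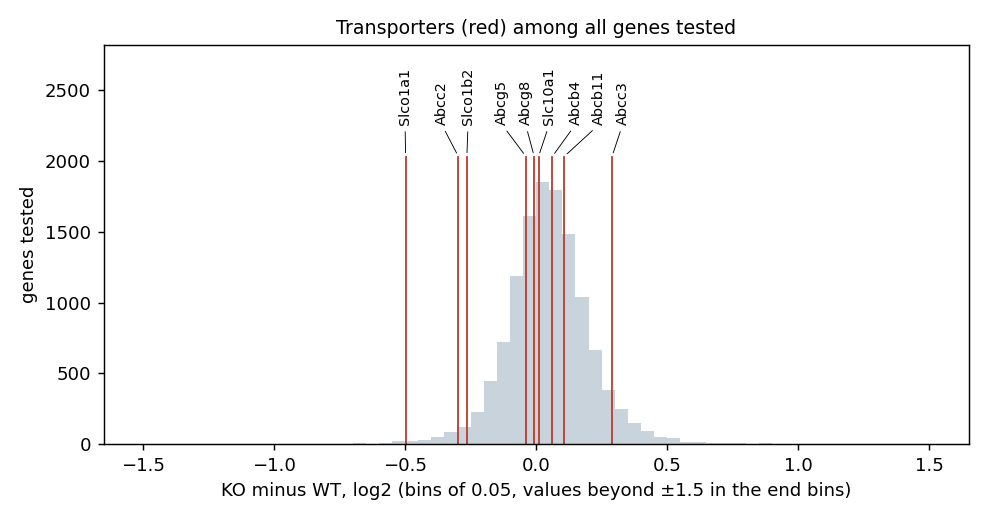
Histogram of the log2 difference, KO minus WT, over the 12466 genes tested (y axis, number of genes), with the 9 transporters as red lines. Slco1a1 at -0.50 lies in the lower tail, Abcc2 and Slco1b2 stand near its edge, and 5 transporters lie between -0.04 and 0.11 in the bulk.

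Among the brightest probe sets of the uptake carriers, that of Slco1a1 had the lowest KO values relative to WT. The gene encodes a sodium-independent carrier of bile acids, steroid sulfates and other organic anions, and in mice it is known as a male-predominant gene under growth hormone control. Slco1a1 was 9.20, 8.94 and 8.64 in KO pools 1, 2 and 3, against 9.25, 9.49 and 9.53 in WT pools. The groups did not overlap, although KO pool 1 and WT pool 1 lay within 0.05 of each other as measured. The mean was 8.93 ± 0.28 in KO and 9.43 ± 0.15 in WT livers (SD, n = 3), 1.41-fold lower in KO livers. The log2 change of -0.50 (SE 0.15, 95% confidence interval -0.84 to -0.16) had a limma adjusted p of 0.350 and ranked 319th of all genes by p. A second probe set of Slco1a1 gave 7.44, 7.53 and 7.09 in KO pools and 7.66, 8.05 and 8.21 in WT pools, again without overlap. Its log2 change of -0.62 (SE 0.16) had a limma adjusted p of 0.295 in a fit of 19018 probe sets on their own. With the 5′ minus 3′ signal as a term, an alternative chosen after seeing the data, the change was -0.49 (limma adjusted p = 0.215).

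The probe sets of Slco1b2 disagreed. The gene encodes the liver-specific carrier that takes up unconjugated bile acids, bilirubin and several toxins and drugs. Its brightest probe set was 10.24, 10.40 and 10.03 in KO pools and 10.38, 10.60 and 10.48 in WT pools. KO pool 2 lay above WT pool 1, so the groups overlapped. The log2 change of -0.26 (SE 0.12, limma adjusted p = 0.520) was -0.17 without KO pool 3. A probe set of nearly equal brightness had a log2 change of -0.04 (SE 0.09), with KO pools at 10.22, 10.22 and 10.33 and WT pools at 10.30, 10.31 and 10.29. A dimmer one gave 6.25, 7.10 and 6.59 in KO pools and 7.26, 7.71 and 7.16 in WT pools, with no overlap and a log2 change of -0.73 (SE 0.22, limma adjusted p = 0.334 in the fit of single probe sets). The other 2 probe sets lay under the dim limit, at means of 2.53 and 2.59 in KO and 2.41 and 2.50 in WT livers. The brightest probe set of Slco1b2 and the only one of Abcc2 carry the suffix s, which Affymetrix gives to probes shared by more than 1 transcript, so signal from other transcripts cannot be told apart there.

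Slc10a1, the sodium-coupled carrier that takes up most conjugated bile acids, had nearly equal means in the genotypes. It was 10.03, 10.38 and 10.41 in KO pools and 10.12, 10.42 and 10.25 in WT pools, with KO pool 1 lowest. The log2 change was 0.01 with a 95% confidence interval of -0.28 to 0.30 (limma adjusted p = 0.985). Its second probe set gave -0.02 with an interval of -0.22 to 0.17 and values of 10.02 to 10.05 in KO and 10.02 to 10.14 in WT livers. The first interval includes differences as large as that of Slco1b2 in either direction.

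**Figure D3:**
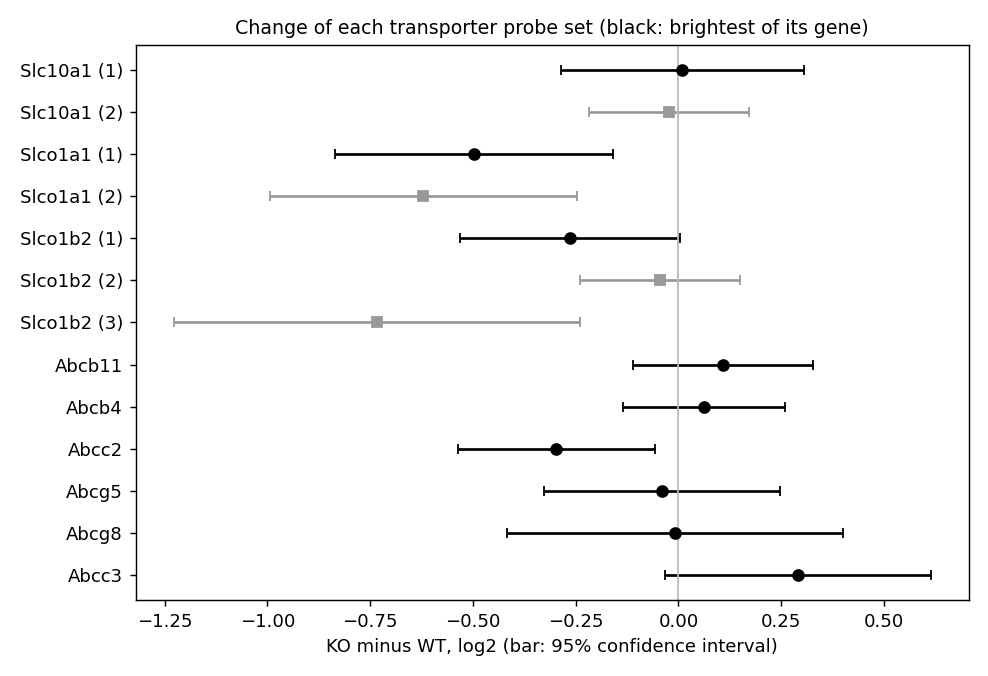
Log2 difference, KO minus WT, of the 13 transporter probe sets above the dim limit, from the fit of every probe set on its own (x axis; bars, 95% confidence interval; n = 3 pools per genotype; black, brightest probe set of the gene; grey, other probe sets in order of brightness). Both Slco1a1 probe sets, the dimmest Slco1b2 probe set shown and that of Abcc2 lie below 0 with intervals that do not reach it. The 3 of Slco1b2 run from -0.73 to -0.04. The intervals are not adjusted for the number of probe sets, and none of the 13 passed (smallest limma adjusted p = 0.295).

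Of the canalicular exporters, Abcc2 had lower values in every KO pool than in any WT pool. Abcc2 encodes the pump for bilirubin glucuronides, glutathione conjugates and other conjugated anions. It was 9.03, 8.92 and 8.73 in KO pools 1, 2 and 3, against 9.28, 9.18 and 9.11 in WT pools. KO pool 1, the highest of its group, lay below WT pool 3, the lowest of its group. The mean was 8.89 ± 0.15 in KO and 9.19 ± 0.09 in WT livers (SD, n = 3), 1.23-fold lower in KO livers. The log2 change of -0.30 (SE 0.10, 95% confidence interval -0.53 to -0.06) had a limma adjusted p of 0.425 and a rank of 554 by p. It lay between -0.36 and -0.22 with any 1 array left out.

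The pumps for bile acids and phospholipid showed small differences with overlapping pools. Abcb11, the bile salt export pump, was 8.03, 8.18 and 8.20 in KO pools and 8.13, 7.96 and 7.98 in WT pools. Its log2 change was 0.11 with a 95% confidence interval of -0.10 to 0.32 (limma adjusted p = 0.748). Abcb4, the translocator that delivers phosphatidylcholine into bile, varied least of the 9 genes between pools of a genotype. It was 9.16, 9.20 and 9.21 in KO pools and 9.05, 9.16 and 9.18 in WT pools. Its log2 change was 0.06 with an interval of -0.13 to 0.25 (limma adjusted p = 0.842), and 0.02 without WT pool 1. The interval of Abcb4 therefore leaves out a difference as large as that measured for Abcc2, while that of Abcb11 does not on the higher side.

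Abcg5 and Abcg8 encode the subunits of the heterodimer that secretes cholesterol and plant sterols into bile. Abcg5 was 8.20, 7.85 and 8.24 in KO pools and 8.28, 8.11 and 8.03 in WT pools, with KO pool 2 lowest. Abcg8 was 6.12, 6.65 and 6.67 in KO pools and 6.72, 6.19 and 6.56 in WT pools, with KO pool 1 and WT pool 2 lowest. The log2 changes were -0.04 (95% confidence interval -0.32 to 0.25, limma adjusted p = 0.943) and -0.007 (interval -0.42 to 0.40, limma adjusted p = 0.992). Abcg8 had the widest spread within a genotype of the 9 genes, with a pooled SD of 0.29, against 0.05 for Abcb4 and a median of 0.13 over all genes tested. Although their starts share 1 short stretch of DNA, the pair gave no detectable relation over the 6 arrays, with Pearson's r = -0.09 (exact permutation p = 0.894) and Spearman's rho = 0.43 (exact permutation p = 0.419; 0.894 and 0.839 after Benjamini-Hochberg adjustment over these 2 measures, two-sided). Without KO pool 2 and WT pool 3, left out because they lay farthest from the median of Abcg5, r was 0.79 over 4 arrays (exact permutation p = 0.25). No correlation within a genotype was computed, as each had 3 arrays.

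Abcc3, the basolateral pump that returns glucuronides and bile acids to the blood, was the only 1 of the 9 genes with higher values in all KO pools than in all WT pools. It was 8.38, 8.24 and 8.18 in KO pools 1, 2 and 3, against 8.10, 8.17 and 7.65 in WT pools. The lowest KO value, 8.181, lay just above the highest WT value, 8.173. The mean was 8.27 ± 0.10 in KO and 7.98 ± 0.28 in WT livers (SD, n = 3), 1.22-fold higher in KO livers, with a log2 change of 0.29 (SE 0.14, limma adjusted p = 0.553). WT pool 3 set most of this difference, which was 0.13 without it.

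The other carriers and exporters of the hepatocyte were read from a list of 19 genes, of which 14 were tested and 0 passed in either direction, with 3 at an unadjusted limma p under 0.05. Of these, 12 had a higher value in KO livers and the median log2 change was 0.11, against 63.4% and 0.04 over all genes tested, of which 9.55% stood at that p. Slco1a4, an organic anion carrier related to Slco1a1, lies between Slco1b2 and Slco1a1 on the chromosome. It was 7.90, 7.69 and 7.84 in KO pools and 7.57, 7.18 and 5.73 in WT pools. The groups did not overlap and WT pool 3 was far below the others. The log2 change of 0.98 (SE 0.39, limma adjusted p = 0.487) was 0.43 without that pool. Slco2a1, a prostaglandin carrier, stood at -0.47 (limma adjusted p = 0.481) and at -0.25 without KO pool 1. Slc51b, a subunit of the basolateral bile acid exporter, stood at 0.40 (limma adjusted p = 0.481), at 0.23 without KO pool 2, with a WT mean of 2.85 close to the dim limit. The other subunit, Slc51a, lay under that limit.

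**Figure D4:**
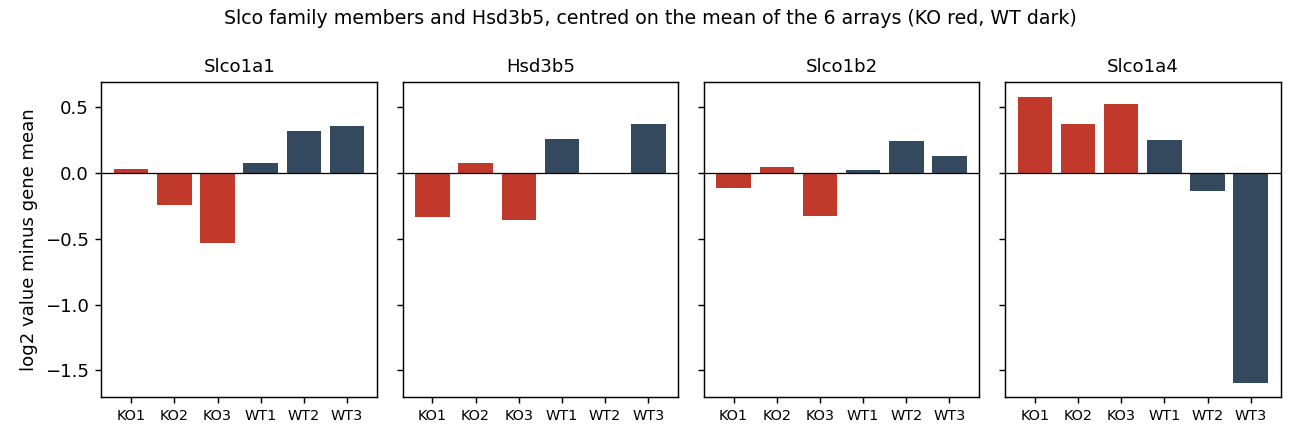
Log2 values of Slco1a1, Hsd3b5, Slco1b2 and Slco1a4 in each array, centred on the mean of the gene over 6 arrays (y axis; KO pools red, WT pools dark). Slco1a1 and Slco1b2 are lowest in KO pool 3, while Slco1a4 is lowest in WT pool 3. Hsd3b5 had the smallest unadjusted p of 11 male-biased and growth hormone signalling genes tested, whose median log2 change was -0.008.

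Male-biased genes and growth hormone signalling were read as a list because of the known control of Slco1a1. Of 11 genes tested, 0 passed and 1 stood at an unadjusted limma p under 0.05, as did 9.55% of all genes tested. In KO livers 4 had a higher and 7 a lower value, where 63.4% of all genes tested had a higher one. The median log2 change of the list was -0.008, against 0.04 over all genes tested. Hsd3b5, a male-predominant steroid dehydrogenase of mouse liver, was 8.42, 8.83 and 8.40 in KO pools and 9.02, 8.75 and 9.13 in WT pools, with KO pool 2 above WT pool 2. Its log2 change was -0.41 (SE 0.15, limma adjusted p = 0.430). Selenbp2 at 0.25 and Elovl3 at 0.15, which are also male-predominant, had higher means in KO livers. Without WT pool 1 these were 0.13 for Selenbp2 and -0.007 for Elovl3, and without WT pool 3 Selenbp2 stood at 0.41.

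Transcription factors and receptors that control transporters gave 0 calls among 13 genes tested and 1 gene at an unadjusted limma p under 0.05. There were 6 higher and 7 lower values and a median log2 change of -0.01. The shares over all genes tested were 9.55% at that p and 63.4% with a higher value. Klb, the co-receptor that lets hepatocytes sense the intestinal bile acid signal FGF15 in mice, was 6.47, 6.39 and 6.24 in KO pools and 6.74, 6.80 and 6.70 in WT pools. Its groups did not overlap, and the log2 change was -0.38 (SE 0.09, limma adjusted p = 0.258). Nr5a2, a nuclear receptor that acts on bile acid genes, stood at -0.31 (limma adjusted p = 0.553) and at -0.15 without KO pool 3. Rxra, the shared partner of many nuclear receptors, stood at 0.10 (limma adjusted p = 0.722).

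Bile acid synthesis and conjugation gave 0 calls among 13 genes and 0 genes at an unadjusted limma p under 0.05, with a median log2 change of -0.008. Of all genes tested, 9.55% stood at that p. Amacr, a racemase of the side-chain pathway, stood at -0.19, Baat, which conjugates bile acids, at 0.17 and Akr1d1, a steroid reductase of the pathway, at -0.19, with limma adjusted p-values of 0.536 to 0.594. Baat stood at 0.11 without WT pool 1 and Akr1d1 at -0.12 without KO pool 3. Of the targets of the oxysterol receptor LXR, which also controls Abcg5 and Abcg8, 0 of 6 passed. Among these 6 genes, 1 stood at an unadjusted limma p under 0.05 and 4 had higher values (median log2 change 0.13). The shares over all genes tested were 9.55% and 63.4%. Scd1, a fatty acid desaturase, was 11.35, 11.29 and 11.36 in KO pools and 10.87, 11.13 and 11.04 in WT pools, without overlap. Its log2 change was 0.32 (limma adjusted p = 0.350). Mylip, a ligase that degrades the LDL receptor, stood at 0.16, or at 0.10 without WT pool 3, and Abcg1, a cholesterol exporter, at 0.22, or at 0.06 without WT pool 2 and 0.44 without WT pool 1. Scaffold and trafficking proteins of the canalicular membrane had 0 calls among 9 genes tested, 0 genes at an unadjusted limma p under 0.05 and a median log2 change of -0.05. Rdx, which encodes radixin, an anchor of the Abcc2 protein at the canalicular membrane, was 9.44, 9.40 and 9.42 in KO pools and 9.54, 9.57 and 9.53 in WT pools, without overlap (log2 change -0.13, SE 0.08, limma adjusted p = 0.636). Pdzk1, which binds the Slco1a1 protein, stood at -0.14 and Ezr, encoding ezrin, at -0.12. Without WT pool 1 these were -0.25 and -0.02, and without WT pool 3 they were -0.06 and -0.20.

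The tested genes whose centred log2 values lay closest to those of Slco1a1 over the 6 arrays were Lipg, an endothelial lipase, Plppr3 and Plac1. Their mean absolute differences from Slco1a1 were 0.06 to 0.07 and their log2 changes -0.39, -0.36 and -0.36. For Abcc2 these were Pou6f1, Atp10b and Smim4, with mean absolute differences of 0.03 to 0.04 and log2 changes of -0.24, -0.27 and -0.33. Without KO pool 3, Plppr3 stood at -0.23, Plac1 at -0.21 and Pou6f1 at -0.14. None of these 6 genes passed, with limma adjusted p-values of 0.348 to 0.553. Such likeness over 6 arrays was picked from 12466 genes and describes these libraries only.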

How the data were processed

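Total RNA from liver (250 ng per array) was amplified with a 3′ IVT kit for Affymetrix arrays, per the labels' protocols. The deposited table holds log2 RMA values per probe set, for which affy, RMA and limma are named per the submitters' processing notes; their versions are not stated there. RMA subtracts background, makes the quantiles of the arrays equal and combines probes, so array medians were alike (2.98 to 3.04) and a shift of most genes 1 way would be reduced. No counts exist, and the number of arrays limits precision.

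Of 45141 probe sets, 28898 had 1 symbol in the platform annotation. A gene was its brightest probe set, and genes under the 40th percentile of the means of probe sets that are not controls (log2 2.66) were left out as dim, leaving 12466 of 17097 genes. KO was compared with WT by limma 3.58.1 in R 4.3.3 (lmFit and eBayes, two-sided, Benjamini-Hochberg over all genes, threshold 0.05). The fit was also run on simulated data with independent noise for each gene and array. Such data hold no difference shared by many genes of an array, so that run does not cover this case. Exact permutation used scipy 1.17.1; figures used matplotlib 3.10.9 in Python 3.11.15. RefSeq tables of GRCm38.p6 gave names, neighbours and sequences. List members without a probe set of 1 symbol were not analysed here.

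The members and lists were chosen with earlier results of these data known. Genes named are the 9 transporters, Nrg4, the 3 members of each pathway list with the smallest unadjusted p, and the 3 genes most like each of the 2 transporters with the smallest p. Slc51a and the cell markers were named after their values were seen. Alternatives were another quantile normalization, centring on medians, no filter or the 60th percentile, array weights, a trended or robust variance prior, averaging of a gene's probe sets, single probe sets, a replicate block, adjusted p under 0.10 and leaving out each array.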

Additional observations from a re-analysis of the deposited data

How the results depend on the processing

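No transporter passed in any of 18 alternatives, 17 of them planned and 1, the 5′ minus 3′ term, added after seeing the data; the lowest limma adjusted p was 0.0931, for Slco1a1 with array weights, and it was 0.113 without KO pool 1. In 11 of the 18 alternatives the choice could move a log2 change. Of the 99 values of single transporters there, 88 kept their direction. The 11 that reversed were all of Slc10a1, Abcg5 or Abcg8, whose changes are near 0. The 99 include values that averaging of probe sets could not move, those of Abcb11, Abcb4, Abcc2, Abcc3, Abcg5 and Abcg8, which have 1 probe set each. Slc10a1 was -0.0041 with centring and -0.0067 with the mean of its probe sets, and Abcg8 0.20 with array weights. With 1 array left out, Slc10a1 ranged from -0.062 to 0.13, Abcg5 from -0.11 to 0.084, Abcg8 from -0.16 to 0.17, Slco1a1 from -0.64 to -0.36 (adjusted p 0.113 to 0.805), Slco1b2 from -0.35 to -0.17, Abcc2 from -0.36 to -0.22, Abcb11 from 0.08 to 0.16, Abcb4 from 0.02 to 0.09 and Abcc3 from 0.13 to 0.39. The median of the 9 transporters was -0.046 with quantile normalization again and ranged from -0.10 to 0.077 with 1 array left out. The number of all genes called, 5 in the main analysis, was 8 with quantile normalization again, 3 with the 60th percentile filter, 29 with a variance trend, 50 with array weights, 3 with the mean of probe sets, 30 at adjusted p under 0.10 and 12 with the 5′ minus 3′ term, and it was 17 without KO pool 1 and 1 or 2 without any other array; the cause was not tested. Same-numbered pools are not stated to be paired. Their deviations correlated at -0.15, 0.03 and -0.01, which cannot show whether they were handled together. With the replicate block, 2 genes and 0 transporters were called. The transporters' main probe sets averaged 6.48 or more, and nonspecific control probe sets had array medians of 1.65 to 1.76.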
